A study of Arabidopsis thaliana with 9 samples.

Results

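The chloroplast and mitochondrial genome probe sets of an Affymetrix Arabidopsis array were taken as the rows whose probe set number lies from 244901 to 245026. A probe set is a group of short probes that together give 1 signal for a transcript. The range holds 126 of the 22810 probe sets on the array. The array annotation places 73 of them on the chloroplast genome, where they measure 72 genes, and gives a mitochondrial gene symbol to 12. A further 5 name loci on nuclear chromosome 2, 1 names a pair of genes and 35 name no gene.

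RNA came from whole Arabidopsis thaliana seedlings, ecotype label col 1, that had grown for 21 days on 1/2 MS medium with no antibiotic and no treatment. The 3 groups had 3 arrays each and were line 22 expressing the rice gene OsSAP11, line 25 expressing the rice gene OsRLCK253, and untransformed wild type. OsSAP11 is a zinc-finger protein of the stress-associated A20/AN1 family in rice. OsRLCK253 is a receptor-like cytoplasmic kinase. Each rice gene is represented by 1 line, so an effect of the line and an effect of the rice gene cannot be told apart, and the promoter of the rice genes is not given in the sources used here.

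Chloroplasts and mitochondria keep small genomes of their own, while nuclear genes supply most of their proteins. The chloroplast genome encodes core subunits of the photosystems, the cytochrome b6f complex, ATP synthase, the NDH complex, the large subunit of Rubisco, a bacterial-type RNA polymerase and part of the plastid ribosome. Many of its genes are transcribed together in operons, and RNA processing and decay help to set their transcript levels. In both organelles of plants a poly(A) tail marks RNA for degradation, and most mature organelle transcripts carry no long tail. The labels give the standard Affymetrix protocol, which starts the copy of the RNA from poly(A) tails. A signal can thus depend on the copied share of an organelle transcript as well as on its amount, and that share was not measured.

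The arrays were alike in overall level, with median signals between 42.9 and 46.2. On each of them 39.8% to 40.3% of probe sets stayed below a signal of 16, a level used here as the floor of measurement. Signals depend on the probes, so they are compared between groups for the same probe set and not between genes. The 18 hybridisation spike-in probe sets, which are added in equal amounts to each sample, had median log2 differences from wild type of -0.26 in OsSAP11 and -0.17 in OsRLCK253. Of 6 control transcripts with a 3' and a 5' probe set, the ratio of 3' to 5' signal was higher than in wild type for 3 in OsSAP11, where the log2 differences ran from -0.14 to 0.3. It was higher for 5 in OsRLCK253, with log2 differences from -0.13 to 0.22. The part of these shifts in the results was not tested. RCA, the Rubisco activase gene and the 1 green-leaf marker measured of 4, had signals of 18604 ± 1581 in wild type, 23806 ± 1168 in OsSAP11 and 25816 ± 599 in OsRLCK253 (SD, n = 3 for this and all later signals). The 1 flower and pollen marker measured of 3, AT5G45880, stayed between 4 and 4.12 in group mean, and none of the 4 root or 3 seed markers was measured. A nuclear gene counts as measured here only where a probe set names it and no other gene in the annotation used. The array may hold probe sets for the others. In whole seedlings, fewer cells or plastids of a type and less RNA in each cannot be told apart.

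The 73 chloroplast probe sets gave clear signals. On all 9 arrays 68 of them reached 16, 46 had a mean over 1000 and 9 a mean over 10000, and none was under 16 on every array. The brightest members were atpB and atpE, subunits of the ATP synthase, psbM of photosystem II, ndhI of the NDH complex and petB, which encodes cytochrome b6, with means over the 9 arrays of 24874, 23875, 21113, 20176 and 17272. The mitochondrial probe sets gave little: 9 of 12 stayed under 16 on all 9 arrays, as did 28 of the 35 with no gene named, 3 of the 5 nuclear loci and 36.5% of all 22746 probe sets tested. The 5 lowest means, between 3.53 and 4.21, belonged to orfX, a mitochondrial reading frame, and to 244916_at, 244941_at, 244913_at and 244942_at, which name no gene, and at such signals they have no order. For those 9 mitochondrial members the arrays give only an upper bound on the level, and a difference between groups has no clear size.

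**Figure D1:**
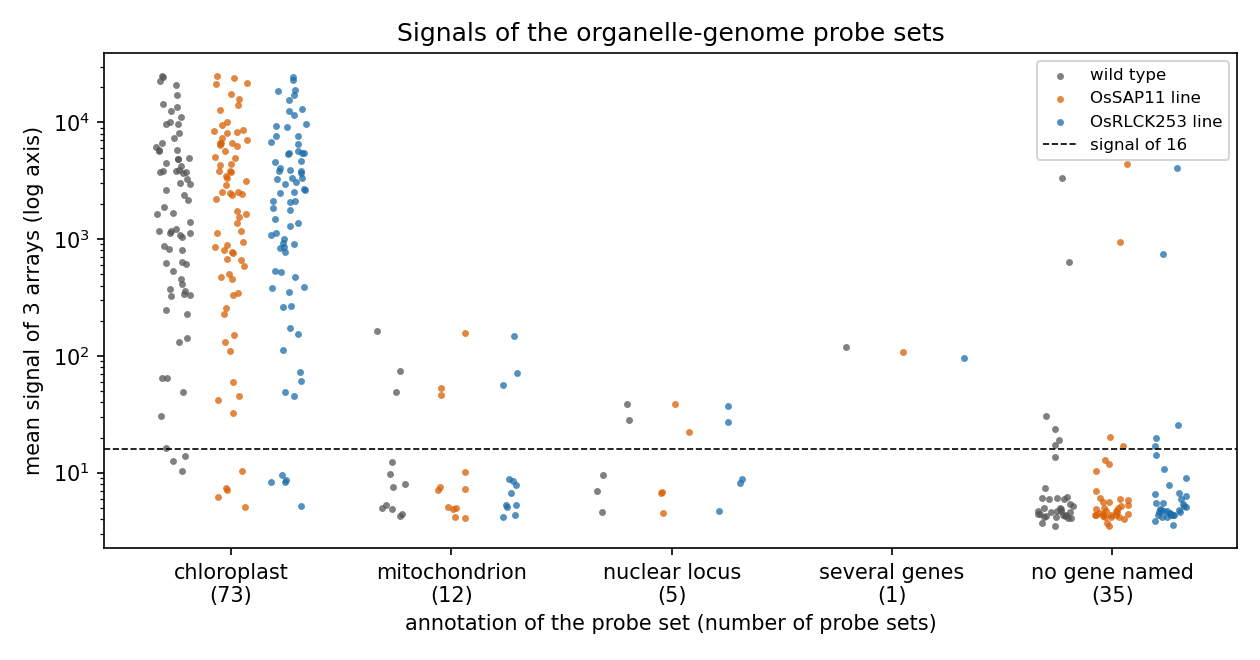
Mean signal of the 3 arrays of each group on a log axis for the 126 organelle-genome probe sets, arranged by annotation; each point is 1 probe set in 1 group, coloured by group, and the dashed line marks a signal of 16. None of the 73 chloroplast probe sets lay under 16 on all arrays, while 9 of the 12 mitochondrial ones did.

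The wild type arrays differed among themselves more than the arrays of either line did for chloroplast probe sets. The median SD of log2(signal + 16) over the 73 chloroplast members was 0.25 in wild type, 0.11 in OsSAP11 and 0.12 in OsRLCK253, against 0.074, 0.064 and 0.087 over all probe sets tested. Wild type had the largest SD of the 3 groups for 54 of the 73 (74%), against 28.8% of all probe sets. Its SD was over 0.5 for 8 chloroplast members (11%, against 0.576% of all) and neither line reached that for any of the 73. These 8 were ndhG, rpl20, ycf2, rpoB, petN, rps14, ycf3 and rbcL. Of them 6 were lowest in wild type replicate 2 and 7 were highest in wild type replicate 3. The scale log2(signal + 16) narrows the spread of dim probe sets, and 36.5% of all stayed under 16 on all arrays, against none of the 73. The values over all probe sets are thus not a like comparison, and those between the 3 groups are.

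**Figure D2:**
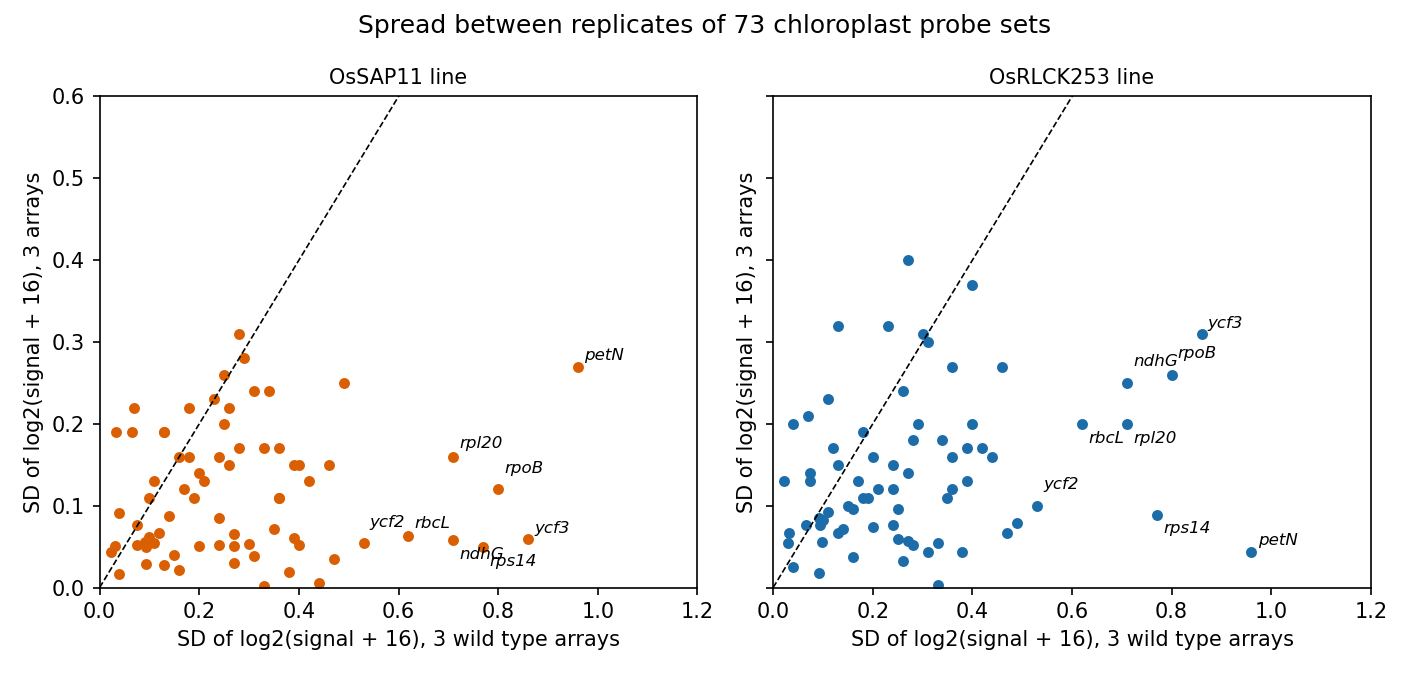
SD of log2(signal + 16) over the 3 arrays of each line against that over the 3 wild type arrays, for 73 chloroplast probe sets; points below the dashed line of equal spread vary more in wild type. The 8 named genes have a wild type SD over 0.5.

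petN, a small subunit of the cytochrome b6f complex, gave 102, 60.1 and 266 in wild type, 33.7, 56.6 and 45.2 in OsSAP11, and 59.9, 58.9 and 63.3 in OsRLCK253. Wild type replicates 1 and 3 lay above every array of the lines, and replicate 2 lay among them. The OsSAP11 difference was -1.17 ± 0.44 (SE, adjusted p = 0.156), the most negative fitted difference among the chloroplast members in that comparison, and it was not called. ycf3, which encodes an assembly factor of photosystem I, gave 276, 96.2 and 317 in wild type, 135, 125 and 135 in OsSAP11, and 161, 183 and 115 in OsRLCK253. Here wild type replicate 2 lay below both lines, apart from replicates 1 and 3. rps14, a ribosomal protein gene of the same transcription unit as the photosystem I core, gave 30.6, 8 and 52.6 in wild type, and all 6 arrays of the lines lay between 7.95 and 11.1. ndhB and ndhF of the NDH complex, petD of the b6f complex and ycf2 reached 16 on 1 array each, wild type replicate 3, at 17.1, 23, 23.1 and 30.4.

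In the OsSAP11 line, signals of 3 neighbouring ribosomal protein genes, rps3, rpl22 and rps19, were higher than in wild type, as were those of psbH of photosystem II and ycf1. Signals of ndhK of the NDH complex and of 1 probe set of rps12 were lower. All tests were made with limma on log2(signal + 16) over all 22746 probe sets, and a probe set was called at a Benjamini-Hochberg adjusted p under 0.05. Of the 126 members 7 were called (5.56%), 5 higher and 2 lower, and all 7 were chloroplast probe sets. Of all probe sets tested 12.6% were called, 7.44% higher and 5.17% lower, so the share among the members lay under the background and that among the 73 chloroplast probe sets, 9.59%, did too. That order rested on single wild type arrays: without wild type replicate 2 it was 11.9% of the members and 19.2% of the chloroplast probe sets against 10.7% of all, and without replicate 1 it was 8.22% of the chloroplast probe sets against 8.03%. These backgrounds include dim probe sets: 36.5% of all stayed under 16 on all arrays, and none of the 73 chloroplast ones did. In a separate fit of the 11829 brighter probe sets, 24.3% of the 74 organelle ones kept were called, against 29.4% of all kept. Brighter means that the highest of the 3 group means was over 46.94, the median of all mean signals. A probe set can thus be kept through 1 group alone, which favours those that differ between groups, so these shares are not a neutral background. The median log2 change of the chloroplast probe sets was 0.033, against -0.0021 over all probe sets. The OsSAP11 and wild type arrays did not overlap for 28.8% of the chloroplast probe sets, against 31.7% of all, so a lack of overlap is common. The count of members called without wild type replicate 2 was 15 (6 higher, 9 lower). Without OsSAP11 replicate 1 or replicate 2 it was 4 (3.17%), against 8.19% and 8.3% of all probe sets.

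rpl22 encodes a protein of the large plastid ribosomal subunit. Its signals were 3531, 3922 and 4176 in wild type, 6835, 6897 and 6334 in OsSAP11, and 5438, 5905 and 4650 in OsRLCK253. Every array of OsSAP11 was above every OsRLCK253 array, and every OsRLCK253 array above wild type. The log2 change in OsSAP11 was 0.79 ± 0.099 (SE), or 1.73-fold (limma adjusted p = 0.00429). rps3, of the small subunit, gave 6215, 5366 and 5694 in wild type, 8762, 8269 and 8173 in OsSAP11, and 6718, 6786 and 6046 in OsRLCK253. The OsSAP11 arrays stood above all others, and the wild type and OsRLCK253 arrays overlapped. Its change in OsSAP11 was 0.55 ± 0.067, or 1.46-fold (adjusted p = 0.00398). rps19, also of the small subunit, gave 5574, 4707 and 4628 in wild type, 6715, 6424 and 6758 in OsSAP11, and 5459, 6120 and 5344 in OsRLCK253. It too was highest on the OsSAP11 arrays with no overlap, with a change of 0.42 ± 0.083, or 1.34-fold (adjusted p = 0.0199). The calls of rpl22 and rps3 held with each array left out, while that of rps19 was lost without wild type replicate 2 or 3 or without any 1 of the 3 OsSAP11 arrays (adjusted p up to 0.0672).

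The same stretch of the genome was described gene by gene in the RefSeq order, with no test of the stretch itself. From rpoA to rps19 the measured genes are rpoA, which encodes a subunit of the plastid RNA polymerase, then rpl36, rpl14, rpl16, rps3, rpl22 and rps19. rpoA gave 3680 ± 881 in wild type, 3825 ± 192 in OsSAP11 and 4103 ± 311 in OsRLCK253. rpl36 gave 1366, 1376 and 2202 in wild type and 2505, 2530 and 2096 in OsSAP11, and rpl14 gave 361, 403 and 611 against 675, 671 and 626. In both genes wild type replicate 3 was the array nearest to OsSAP11. Their differences were 0.56 (adjusted p = 0.139) and 0.54 (adjusted p = 0.117), uncalled, and both were called without wild type replicate 3, at 0.78 (adjusted p = 0.0188) and 0.76 (adjusted p = 0.00791). rpl16 differed by 0.1 (adjusted p = 0.938). 2 probe sets numbered among them, 244979_at and 244981_at, name no gene, and they gave 3368 ± 759.6 and 641 ± 181 in wild type and 4383 ± 288 and 953 ± 101 in OsSAP11. They differed by 0.4 (adjusted p = 0.189) and 0.59 (adjusted p = 0.12), uncalled. Both were called without wild type replicate 3, at 0.58 (adjusted p = 0.0329) and 0.79 (adjusted p = 0.0367). rpl2 and rpl23, the next 2 ribosomal protein genes and the brightest of the 19 ribosomal protein probe sets, gave 14438 ± 1591 and 9710 ± 1780 in wild type and 15842 ± 1657 and 10027 ± 1211 in OsSAP11.

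Of all 19 ribosomal protein probe sets 4 were called in OsSAP11 (21.1%, against 12.6% of all probe sets), 3 higher and 1 lower, and the group's median log2 change was 0.1. That background includes dim probe sets, and in the separate fit of the brighter ones 29.4% of all kept were called. That fit called the same 4 and also rpl36 and rpl14, higher, and rps4, lower. The shares of 21.1% and 29.4% thus come from unlike fits and are not to be compared. The 1 ribosomal protein probe set called lower in the fit of all probe sets measures rps12, whose transcript is joined by trans-splicing. Probe set 244939_at gave 73.5, 53.6 and 68.4 in wild type, 40.2, 47.5 and 39.1 in OsSAP11, and 49.8, 54 and 44.5 in OsRLCK253. The OsSAP11 arrays lay under all wild type arrays and overlapped those of OsRLCK253. The change was -0.47 ± 0.11 (adjusted p = 0.034). The call was lost without wild type replicate 1 or 3, any 1 OsSAP11 array or OsRLCK253 replicate 1 (adjusted p up to 0.107). The other rps12 probe set, 244940_at, gave 1039 ± 175 in wild type, 807 ± 89.3 in OsSAP11 and 914 ± 91.8 in OsRLCK253, a difference of -0.35 that was not called (adjusted p = 0.193). rps4, the third brightest ribosomal protein member, gave 9662 ± 1430, 7300 ± 657 and 9045 ± 742 in the same order, a difference of -0.4 in OsSAP11 (adjusted p = 0.0861).

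psbH encodes a small phosphoprotein of photosystem II. It gave 3320, 3347 and 3251 in wild type, 4198, 4454 and 4382 in OsSAP11, and 3945, 4096 and 3435 in OsRLCK253. The wild type arrays lay close together and under all others. The log2 change in OsSAP11 was 0.39 ± 0.063, or 1.31-fold (adjusted p = 0.00985), and the call held with each array left out. Of the 13 photosystem II probe sets this was the 1 called (7.69%), while 11 of 13 had a positive difference and the median was 0.29. The brightest photosystem II members, psbM, psbF and psbJ, differed by -0.064, 0.15 and 0.25, uncalled. psbD and psbC, which encode the D2 reaction centre protein and the antenna protein CP43, differed by 0.59 (adjusted p = 0.0604) and 0.45 (adjusted p = 0.107).

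ycf1 encodes a large protein assigned to the import machinery of the inner envelope. It gave 1882, 2011 and 1723 in wild type, 3207, 2848 and 2675 in OsSAP11, and 2728, 2964 and 2183 in OsRLCK253. Every array of both lines was above every wild type array. The change in OsSAP11 was 0.63 ± 0.13, or 1.55-fold (adjusted p = 0.0213), and in OsRLCK253 0.48 ± 0.13 (adjusted p = 0.0534), so only the first was called. Without wild type replicate 1 or 3, or OsSAP11 replicate 1 or 2, the first was not called either (adjusted p up to 0.0707). Part of ycf1 lies in the repeated region of the chloroplast genome, and its probe set names copies of one gene. The other 7 assembly and maintenance members had no call, and their brightest, ccsA for cytochrome maturation, clpP for the Clp protease and cemA of the envelope, differed in OsSAP11 by -0.23, 0.033 and 0.033.

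ndhK encodes an iron-sulphur subunit of the NDH complex, which returns electrons to plastoquinone around photosystem I. It gave 412, 363 and 346 in wild type, 209.8, 213 and 268 in OsSAP11, and 312, 372 and 377 in OsRLCK253. The OsSAP11 arrays lay under all others and the other groups overlapped. The change was -0.67 ± 0.12, or 0.63 of wild type (adjusted p = 0.0143), and it was lost without OsSAP11 replicate 1 or 2 (adjusted p up to 0.0522). Its neighbours in the same operon are ndhJ and ndhC. ndhJ gave 1465, 946 and 1224 in wild type and 742, 781 and 773 in OsSAP11, a difference of -0.63 (adjusted p = 0.0892) with no overlap of the arrays. Without wild type replicate 2 it was called, at -0.79 (adjusted p = 0.0461). ndhC differed by 0.024 (adjusted p = 0.965), with 4889 ± 331 in wild type and 4973 ± 370.5 in OsSAP11. Of the 11 NDH probe sets ndhK was the 1 called (9.09%), the median was -0.052, and the brightest, ndhI, ndhD and ndhA, differed by 0.031, -0.052 and 0.18.

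**Figure D3:**
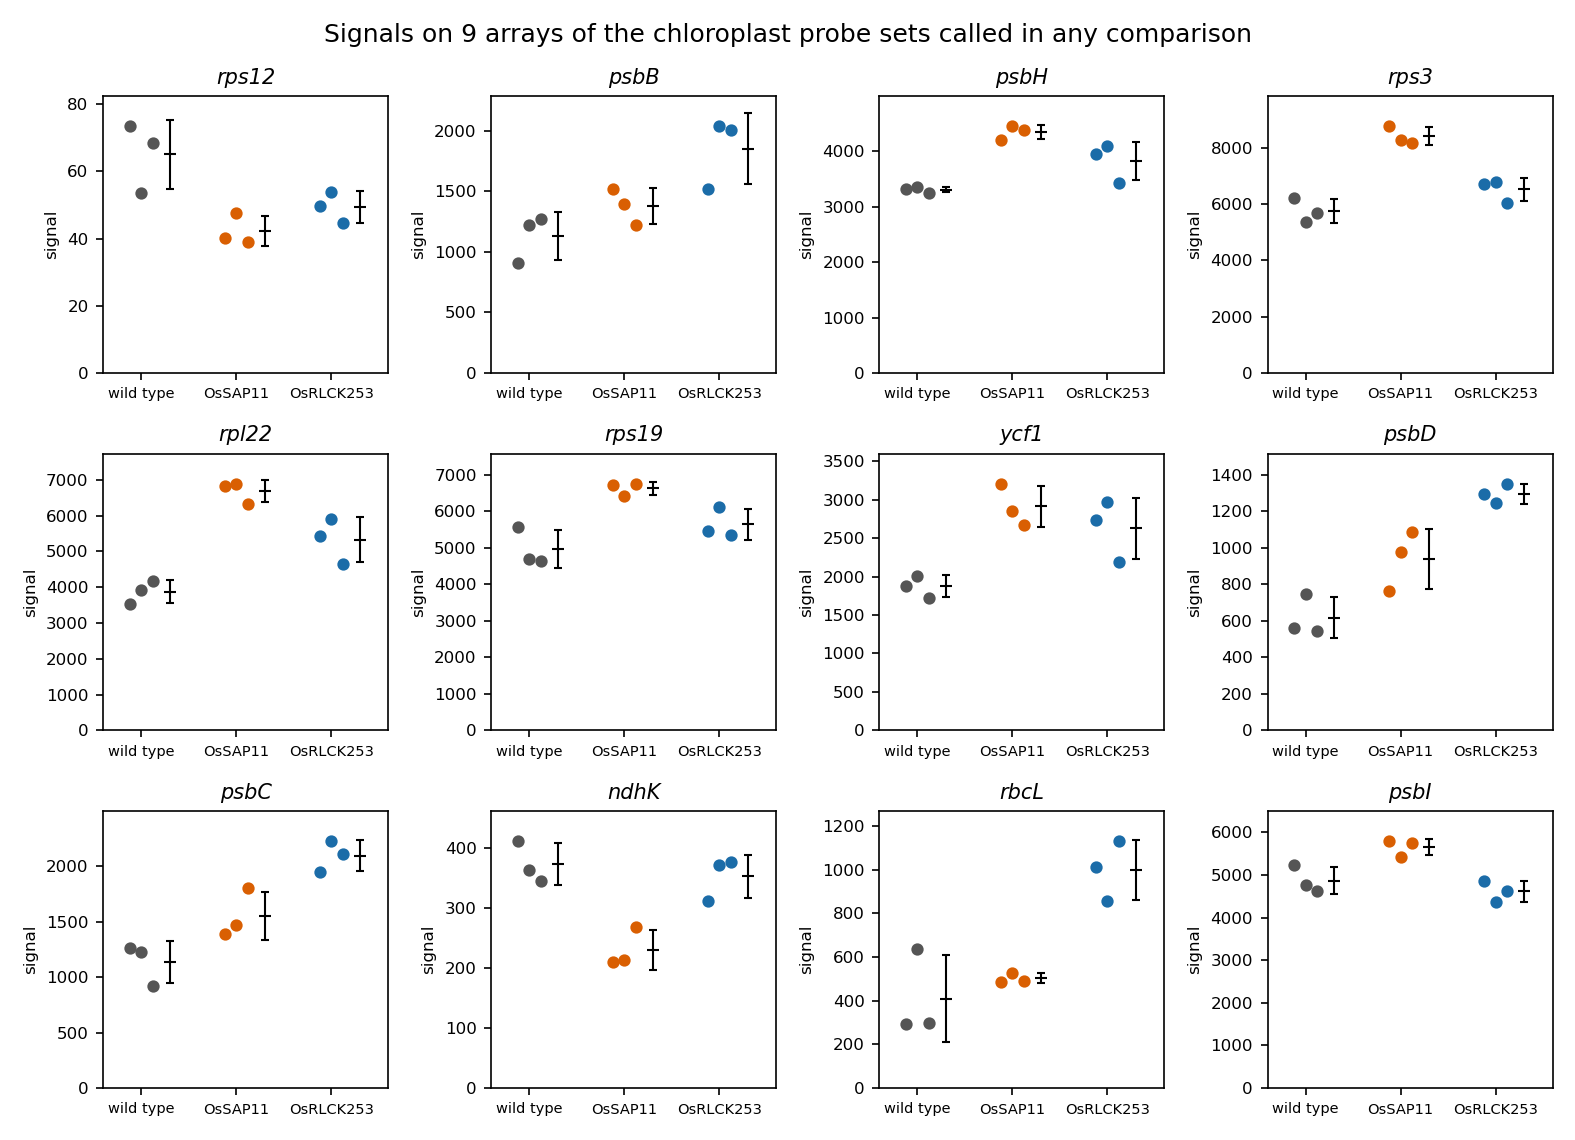
Signal on each of the 9 arrays for chloroplast probe sets called in at least 1 comparison, in separate panels whose vertical axes start at 0; each point is 1 array, and the bar beside each group gives its mean and SD. rpl22 and rps3 are highest on the OsSAP11 arrays and ndhK lowest, and rbcL, psbD and psbC are highest on the OsRLCK253 arrays.

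In the OsRLCK253 line rbcL, psbD, psbC and psbB were higher than in wild type, as was rpl22. rbcL encodes the large subunit of Rubisco, the enzyme that fixes carbon dioxide, and the psb genes encode the D2 protein and the core antenna proteins CP43 and CP47 of photosystem II. Of the 126 members 5 were called (3.97%), all of them chloroplast probe sets (6.85% of 73) and higher in the line. Of all probe sets tested 13.8% were called, 6.95% higher and 6.85% lower. Without wild type replicate 2 the share was 12.3% of the chloroplast probe sets and 7.94% of the members against 11.7% of all. The median log2 change of the chloroplast probe sets was -0.034, against 0.014 over all. The OsRLCK253 and wild type arrays did not overlap for 19.2% of the chloroplast probe sets, against 46.4% of all. Among the 35 members with no gene named, 28 of them under 16 on all arrays, it was 48.6%. Of all probe sets 36.5% stayed under 16 on all arrays, and no chloroplast one did. The backgrounds over all probe sets are thus not a like comparison. The count of members called without wild type replicate 2 was 10 (4 higher, 6 lower). Without wild type replicate 3 it was 8 (6.35%, against 10.6% of all probe sets). Without wild type replicate 1 or OsRLCK253 replicate 2 it was 3 (2.38%, against 8.96% and 11%). Without OsSAP11 replicate 1 it was 2 (1.59%, against 11.4%).

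rbcL gave 291, 639 and 299.8 in wild type, 487, 529 and 492 in OsSAP11, and 1014, 857 and 1132 in OsRLCK253. The OsRLCK253 arrays stood above all others, and wild type replicate 2 lay above the OsSAP11 arrays while the other wild type arrays lay under them. The log2 change in OsRLCK253 was 1.34 ± 0.29, or 2.53-fold (limma adjusted p = 0.0259). It was 1.7 without wild type replicate 2 (adjusted p = 0.00133), and the call was lost without wild type replicate 1 or 3, OsSAP11 replicate 1 or any 1 OsRLCK253 array (adjusted p up to 0.0817). In OsSAP11 the difference from wild type was 0.38 ± 0.29 (adjusted p = 0.548), and without wild type replicate 2 it was 0.73 and called (adjusted p = 0.0158). atpB and atpE, which are read in the other direction from a neighbouring promoter, gave 25201 ± 519 and 24249 ± 1541 in wild type and 24658 ± 926 and 23196 ± 297 in OsRLCK253. Their differences of -0.032 and -0.062 were not called, nor were those of the other 4 ATP synthase members, and atpA, the third brightest, gave 13462 ± 938 and 13027 ± 742.

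psbD gave 563, 749 and 542 in wild type, 762, 975 and 1087 in OsSAP11, and 1294, 1244 and 1352 in OsRLCK253. Its groups did not overlap and stood in the order wild type, OsSAP11, OsRLCK253. The change in OsRLCK253 was 1.06 ± 0.16, or 2.09-fold (adjusted p = 0.00695). psbC, which overlaps psbD in 1 operon, gave 1267, 1223 and 916 in wild type, 1385, 1473 and 1800 in OsSAP11, and 1950, 2227 and 2114 in OsRLCK253. It had the same order without overlap, and its change in OsRLCK253 was 0.89 ± 0.15, or 1.85-fold (adjusted p = 0.01). Both calls held with each array left out. psbZ, the next gene, gave 2132, 1325 and 1579 in wild type and 2205, 2842 and 2485 in OsRLCK253, a difference of 0.6 that was not called (adjusted p = 0.108).

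psbB gave 908, 1223 and 1270 in wild type, 1517, 1393 and 1224 in OsSAP11, and 1517, 2040 and 2004 in OsRLCK253. The OsRLCK253 arrays lay above wild type, and the OsSAP11 arrays overlapped wild type and reached the lowest OsRLCK253 array. The change was 0.7 ± 0.17, or 1.63-fold (adjusted p = 0.0387), and it was called in 1 of the 9 fits that leave out an array, the one without OsRLCK253 replicate 1 (adjusted p up to 0.11 in the others). The genes after it in its operon are psbT, psbH, petB and petD, with psbN on the other strand. psbT and psbH differed by 0.28 (adjusted p = 0.316) and 0.21 (adjusted p = 0.0836), petB by -0.0085 (adjusted p = 0.801) and psbN by 0.17 (adjusted p = 0.642). In OsSAP11 it was psbH that was called and psbB that was not, at 0.29 (adjusted p = 0.385). Of the 13 photosystem II probe sets 3 were called in OsRLCK253 (23.1%, against 13.8% of all probe sets), all higher, and the median was 0.17. That background includes dim probe sets, and in the separate fit of the brighter ones 30.9% of all kept were called in OsRLCK253. That fit called the same 3 and also psbZ, higher. The shares of 23.1% and 30.9% thus come from unlike fits and are not to be compared.

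In the reported fit rpl22 was the 1 member called in both lines against the same wild type arrays. With the signals given above, its change in OsRLCK253 was 0.45 ± 0.099, or 1.37-fold (adjusted p = 0.0269). The call was lost without wild type replicate 1 or 2, OsSAP11 replicate 1 or OsRLCK253 replicate 1 or 2 (adjusted p up to 0.0841). It was also the 1 of 19 ribosomal protein probe sets called in this line (5.26%), where the median of the 19 was -0.035. Other settings called other members in both lines. With replicate number as a block ycf1 was called in both (limma adjusted p = 0.0178 in OsSAP11 and 0.03 in OsRLCK253). The fit of the brighter probe sets called ycf1, rpoC1, psbD, psbC and psbZ in both.

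By limma no photosystem I, cytochrome b6f, RNA polymerase, NDH, ATP synthase or assembly member was called in OsRLCK253, where 1, 1, 1, 1, 0 and 1 of them had an unadjusted p under 0.05. In OsSAP11 no photosystem I, cytochrome b6f, RNA polymerase or ATP synthase member was called, and 1, 2, 1 and 0 had an unadjusted p under 0.05. Over all probe sets 25.3% had an unadjusted p under 0.05 in OsSAP11, 29% in OsRLCK253 and 26.4% between the lines. All 6 cytochrome b6f probe sets had a negative difference in OsRLCK253, with a median of -0.25, while 3 of 6 did in OsSAP11, with a median of -0.16. petL, a small b6f subunit, gave 833, 539 and 527 in wild type, 437, 433 and 500 in OsSAP11, and 370.3, 422 and 356 in OsRLCK253. Both lines lay under wild type on all arrays, with differences of -0.43 (adjusted p = 0.191) and -0.68 (adjusted p = 0.0507). petA and petB, the other bright b6f members, differed by -0.034 and -0.0085 in OsRLCK253 and by 0.0028 and 0.042 in OsSAP11. The 4 subunits of the plastid RNA polymerase had positive differences in OsRLCK253, with a median of 0.28, and a median of -0.0015 in OsSAP11. Of them rpoC1 gave 1179 ± 246 in wild type, 1657 ± 60.7 in OsSAP11 and 1785 ± 404 in OsRLCK253, where the difference was 0.59 (adjusted p = 0.0986). rpoC2 gave 362 ± 107, 333 ± 35.2 and 477 ± 135 in that order.

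Among the 5 photosystem I members, the brightest were psaB, psaJ and psaI. psaB, a core protein, gave 11041 ± 1390 in wild type, 9411 ± 985 in OsSAP11 and 11638 ± 864 in OsRLCK253. psaI, a small subunit, gave 4825, 2772 and 3795 in wild type, 2436, 2554 and 2615 in OsSAP11, and 2608, 3206 and 3387 in OsRLCK253. The OsSAP11 arrays lay under all wild type arrays, and the difference of -0.54 was not called (adjusted p = 0.142). psaI follows rbcL and accD on the genome, and accD, for fatty acid synthesis, differed by -0.24 in OsSAP11 and 0.19 in OsRLCK253, uncalled.

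**Figure D4:**
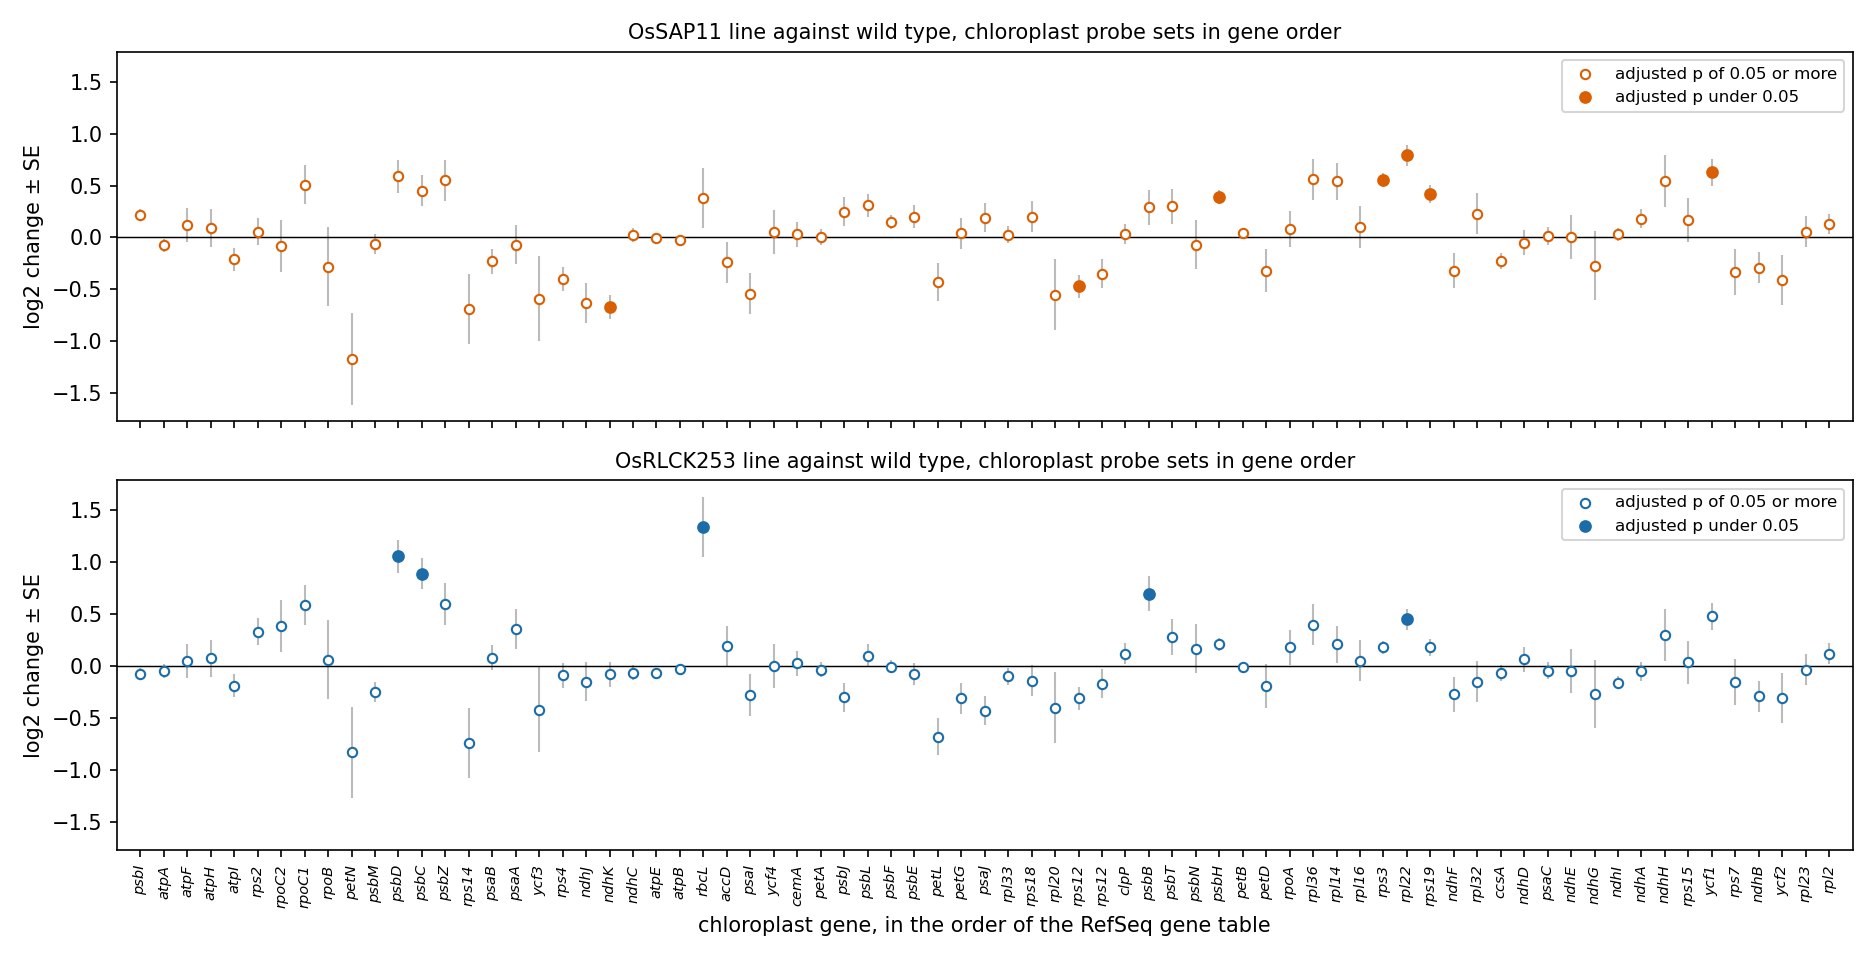
Log2 change from wild type, with its standard error, of the chloroplast probe sets in the RefSeq order of their genes, for OsSAP11 and OsRLCK253; filled points passed an adjusted p under 0.05. rps3, rpl22 and rps19 rose side by side in OsSAP11, and psbD and psbC side by side in OsRLCK253.

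Between the lines, rps3 and psbI were higher and ndhK lower in OsSAP11 than in OsRLCK253. These 3 of the 126 members (2.38%) were called, 2 higher and 1 lower, against 5.21% of all probe sets, 3.34% higher and 1.87% lower. The median log2 difference of the chloroplast probe sets was 0.014, against -0.012 over all. The arrays of the lines did not overlap for 42.5% of the chloroplast probe sets, against 50.6% of all. The latter include dim probe sets, with 36.5% under 16 on all arrays, so these shares are not a like comparison. rps3 differed by 0.37 ± 0.067 (limma adjusted p = 0.0315) and ndhK by -0.59 ± 0.12 (adjusted p = 0.0419), with the signals given above. psbI, a small photosystem II subunit, gave 5227, 4753 and 4613 in wild type, 5794, 5432 and 5742 in OsSAP11, and 4863, 4367 and 4623 in OsRLCK253. Its OsSAP11 arrays lay above all others, and the difference between the lines was 0.29 ± 0.059 (adjusted p = 0.0412). None of the 3 was called with every array left out in turn: rps3 was lost without wild type replicate 3, any 1 OsSAP11 array or OsRLCK253 replicate 3 (adjusted p up to 0.094). ndhK was lost in all such fits but those without OsSAP11 replicate 3 or OsRLCK253 replicate 1 (adjusted p up to 0.121), and psbI in all but those without wild type replicate 1 or OsRLCK253 replicate 1 (adjusted p up to 0.128). The count of members called was 0 without OsSAP11 replicate 1 or OsRLCK253 replicate 3, against 2.48% and 3.65% of all probe sets. In these fits limma gave 9 and 11 members an unadjusted p under 0.05. The count was 1 (0.794%) without wild type replicate 3, OsSAP11 replicate 2 or OsSAP11 replicate 3, against 3.96%, 2.13% and 1.97% of all.

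rbcL, called in OsRLCK253 against wild type, differed between the lines by -0.96 ± 0.29 (adjusted p = 0.111), with a 95% interval from -1.65 to -0.27. psbD and psbC differed by -0.47 (adjusted p = 0.139) and -0.44 (adjusted p = 0.136). With all 9 arrays these 3 genes were not called between the lines. rbcL was called there without wild type replicate 2, at -0.96 (adjusted p = 0.014), and its adjusted p was up to 0.247 with another array left out. psaJ, a photosystem I subunit, gave 5007, 4931 and 5279 in OsSAP11 and 3318, 2959 and 3618 in OsRLCK253, with wild type between and overlapping OsSAP11 at 5446, 4264 and 3779. The lines did not overlap, which held for 50.6% of all probe sets, and the difference of 0.62 missed the threshold (adjusted p = 0.0524). psaJ lies after petL and petG, and petG gave 334 ± 44 in wild type, 345 ± 52.5 in OsSAP11 and 266 ± 39 in OsRLCK253.

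No mitochondrial probe set was called by limma in any comparison with all 9 arrays. At an unadjusted p under 0.05 there were 0 of 12 in OsSAP11, 1 in OsRLCK253 and 0 between the lines, against 25.3%, 29% and 26.4% of all probe sets. The median log2 changes were -0.017, -0.0076 and -0.014, which at these signals are differences near the floor. nad4, a subunit of respiratory complex I and the brightest, gave 223, 121 and 153 in wild type, 165, 149.8 and 159 in OsSAP11, and 101, 169 and 173 in OsRLCK253. ccb382 and ccb452, genes of cytochrome c maturation, gave 73.7 ± 16.6 and 49.3 ± 7.68 in wild type, 46.6 ± 11.9 and 52.6 ± 11.8 in OsSAP11, and 71.3 ± 22.8 and 55.8 ± 10.6 in OsRLCK253. All 3 genes overlapped between the groups, except that ccb382 was under wild type on every OsSAP11 array, at -0.52 ± 0.24 (adjusted p = 0.231). cox2, a subunit of cytochrome c oxidase, stayed under 16 on all arrays, with 12.3 ± 2.16, 10.1 ± 0.269 and 8.85 ± 1.5 in the same order, and it was the 1 with an unadjusted p under 0.05 in OsRLCK253. Its difference there was -0.19 (adjusted p = 0.111), and without wild type replicate 3 it was called at -0.25 (adjusted p = 0.0316), with signals under the floor in both groups. nad4L and nad7, also of complex I, ccb206 and matR, a maturase, had means over the 9 arrays of 8.25, 7.87, 5.05 and 4.25.

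The 5 probe sets that name loci on chromosome 2 are uncertain in origin, since that chromosome carries a nuclear copy of mitochondrial DNA whose transcripts cannot be told apart from those of the mitochondrion. The brightest, AT2G07708, gave 38.8 ± 9.7 in wild type, 38.9 ± 4.81 in OsSAP11 and 37.2 ± 10.6 in OsRLCK253. In the fit of all arrays limma called none of the 5 in any comparison. The same held for the 35 with no gene named and for the 1 naming rps3 and rpl16. In that fit 3, 1 and 5 of the 35 had an unadjusted p under 0.05 in OsSAP11, OsRLCK253 and between the lines. So did 0, 1 and 1 of the 5 and none of the 1, against 25.3%, 29% and 26.4% of all probe sets. Of the 35, 244990_s_at was called lower in both lines without wild type replicate 2. Its differences were -0.97 in OsSAP11 (adjusted p = 0.0105) and -0.89 in OsRLCK253 (adjusted p = 0.0106). The calls of 244979_at and 244981_at in OsSAP11 without wild type replicate 3 are given above. In the separate fit of the brighter probe sets 244981_at was also called in OsSAP11 (adjusted p = 0.0258).

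Few nuclear genes that serve these genomes were named alone by a probe set in the annotation used, and only those count as measured. The array may hold probe sets for the others. Of 6 sigma factors, which guide the plastid RNA polymerase to promoters, and of 9 proteins bound to that polymerase, none was measured. Of 3 phage-type organelle RNA polymerases and 7 genes of organelle RNA decay, 1 each was measured, at group means from 8.41 to 8.62 and from 11.6 to 12.3. Of 15 nuclear subunits of chloroplast complexes 3 were measured. PSAE-1 of photosystem I gave 22995 ± 652 in wild type, 24543 ± 1436 in OsSAP11 and 25508 ± 486 in OsRLCK253, and ATPC1 of the ATP synthase 13025 ± 357, 14225 ± 603 and 13810 ± 1312. NdhN, a partner of ndhK in the NDH complex, gave 1126 ± 123, 980.4 ± 75.6 and 945 ± 44.8. None of the 3 was called by limma. In OsRLCK253, 2 of the 3 had an unadjusted p under 0.05, and in the other comparisons none did. Of 8 nuclear subunits of mitochondrial complexes 1 was measured, AT3G15640, at 225 ± 46.1, 201 ± 31.5 and 215 ± 21.7, uncalled with no unadjusted p under 0.05.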

How the data were processed

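The deposited values are intensities, 1 linear signal per probe set and array. The submitters' processing notes name GCOS. Summarisation, background correction and scaling are not given there or in the labels. The labels call the replicates biological and name no separate plants or cultures, so p-values measure the spread between these arrays. Array medians differed by 0.0777 on the scale fitted, log2(signal + 16), under the limit of 0.1, so the deposited signals were used unscaled. On log2 of the signal alone they differed by 0.106, over that limit, so the choice is close and median centring is given as an alternative.

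From them log2(signal + 16) was computed for 22746 probe sets (64 controls were left out) and limma 3.58.1 (R 4.3.3) estimated the 3 group means from the 9 arrays together (6 residual and 0.773 prior degrees of freedom). Fold changes are on that scale, which makes them smaller for dim probe sets. Two-sided p-values were adjusted by Benjamini-Hochberg over these probe sets and called under 0.05. Precision is limited by having 3 arrays per group.

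Names came from the platform annotation, updated through RefSeq (assembly TAIR10.1), which also gave gene order. Of the 12 mitochondrial symbols 7 are in that table's mitochondrial genes. Of the 73 chloroplast probe sets 8 name copies of one gene. Members, gene lists and tests were chosen with earlier results of these data known. The rule names up to 12 called members per direction against wild type and 5 between the lines, the 3 brightest of each role group, the 5 brightest and 5 dimmest members, genes with several probe sets, and measured nuclear list members. Operon neighbours of called genes and members of wide spread or near the threshold were named after their values were seen. Alternatives were quantile normalization, median centring, other pseudocounts, leaving out dim probe sets, fitting only the 2 groups compared, a robust prior with a trend, replicate number as a block, and each array left out.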

Additional observations from a re-analysis of the deposited data

How the results depend on the processing

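With 3 arrays per group, calls near the threshold depend on the setting. The calls of rpl22, rps3 and psbH in OsSAP11 and of psbD and psbC in OsRLCK253 held under all 8 other settings and all 9 fits without an array. A filter keeping the 11829 brighter probe sets, tested over fewer of them, gave 18 organelle calls in OsSAP11 (of 74 kept, 24.3%, against 29.4% of all kept), 10 in OsRLCK253 (13.5%, against 30.9%), 5 between the lines (6.76%, against 16.4%) and 1935 calls among all probe sets between the lines, where the reported counts are 7, 5, 3 and 1185. It left 3 mitochondrial probe sets, with medians of -0.056 in OsRLCK253 and -0.069 between the lines. The trend with a robust prior gave 8 in OsRLCK253 (6.35%, against 15.3% of all), 6 between the lines and 1809 among all probe sets between the lines. Fitting 2 groups alone, on fewer arrays, gave 2 in OsRLCK253 (1.59%, against 9.45% of all) and 609 among all between the lines. The filter and the fit of 2 groups alone called rbcL between the lines (adjusted p = 0.0192 and 0.0337). Against wild type, the fit of 2 groups alone and the replicate block each lost rbcL (limma adjusted p up to 0.0901), psbB and rpl22 in OsRLCK253, and rps12 in OsSAP11. The block also lost rps19 in OsSAP11. Between the lines the fit of 2 groups alone lost rps3, ndhK and psbI, the block lost ndhK and the filter lost psbI. Median centring kept all 7, 5 and 3 organelle calls. It gave 8 in OsSAP11 (6.35%, against 14.1% of all), 8 in OsRLCK253 (6.35%, against 15.9%) and 4 between the lines. Of the 8 in OsRLCK253 7 were higher and 1 lower, or 87.5% higher, against 100% in the reported fit. Between the lines 50.5% of 1642 calls among all probe sets were higher, against 64.1% of 1185. Except where construction is given, the cause was not tested.

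Replicate numbers did not pair the arrays, with correlations of same-numbered deviations from -0.127 to 0.181. With replicate number as a block, 6, 3 and 2 organelle probe sets were called in the 3 comparisons, and 639 among all between the lines. The share in OsSAP11 was 4.76%, against 10% of all, and in OsRLCK253 2.38%, against 11.2%.

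Leaving out 1 array gave 1827 to 2875 calls among all probe sets in OsSAP11, 2037 to 3387 in OsRLCK253 and 449 to 1388 between the lines. The organelle calls ran from 4 to 15, 2 to 10 and 0 to 3. Chloroplast medians ran from -0.0023 to 0.049, -0.05 to 0.021 and -0.036 to 0.036, and mitochondrial ones from -0.025 to -0.0047, -0.015 to 0.013 and -0.018 to -0.0072.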

Other observations

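The annotation names 4 more chloroplast genes outside the number range, and they were tested in the same limma fit. psbK, a small photosystem II subunit, gave 11753 ± 706 in wild type, 12327 ± 466 in OsSAP11 and 10060 ± 140.5 in OsRLCK253 (SD, n = 3). It was lower in OsRLCK253 than in wild type, at -0.22 ± 0.047 (SE, adjusted p = 0.0238), and higher in OsSAP11 than in OsRLCK253, at 0.29 ± 0.047 (adjusted p = 0.0214). rps16, a ribosomal protein gene, gave 113 ± 24.7, 216 ± 8.83 and 167 ± 48.3, and its OsSAP11 difference of 0.87 ± 0.23 missed the threshold (adjusted p = 0.0545). psbA, which encodes the D1 protein of photosystem II, gave 2852 ± 192, 2394 ± 17.6 and 3202 ± 942, and matK, a plastid maturase, gave 6426 ± 678, 6866 ± 131 and 6378 ± 195. Neither was called in any comparison.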
